A study of Homo sapiens with 16 samples.

Results

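The members are genes that store, move and burn lipid, followed through the peak lists of the series: PLIN2, SOAT1, ACSL1, ACSL3, CPT1A, FABP5, LPL, ABCA1 and PPARG. Every peak of the 12 lists that overlapped 1 of 9 windows around these genes in the hg19 build was taken, whatever its height, which gave 705 of the 816313 peaks in all lists. The windows were chr9:19060000-19180000 for PLIN2, chr1:179210000-179380000 for SOAT1, chr4:185630000-185800000 for ACSL1, chr2:223670000-223860000 for ACSL3 and chr11:68470000-68660000 for CPT1A. They were chr8:82140000-82250000 for FABP5, chr8:19750000-19870000 for LPL, chr9:107490000-107740000 for ABCA1 and chr3:12280000-12530000 for PPARG. Together the windows span 1570 kb. Genes next to these on the RefSeq annotation, such as HAUS6 and DENND4C beside PLIN2, may also be served by a peak in a window, and the lists assign no peak to a gene.

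A cell keeps spare fatty acid and cholesterol as esters in lipid droplets, which PLIN2 coats and for which SOAT1 esterifies cholesterol. Fatty acids are first activated to acyl-CoA by enzymes such as ACSL1 and ACSL3, and CPT1A then admits the long-chain ones to the mitochondrion for oxidation. LPL frees fatty acids from circulating lipoproteins, FABP5 carries them inside the cell, ABCA1 exports cholesterol, and the nuclear receptor PPARG switches on genes of lipid uptake and storage. HOXB13 is a homeobox factor of the prostate, HDAC3 is the deacetylase of the NCOR and SMRT corepressor complexes, and H3K27ac, acetylation of histone H3 at lysine 27, marks active promoters and enhancers.

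By its title, the study concerns HOXB13, HDAC3 and lipid metabolism, here in a pair of prostate cancer cell lines. LNCaP cells, which respond to androgen, had been infected for 7 days with an shRNA against HOXB13 (knockdown), with that shRNA plus a lentivirus for the wild-type protein (WT) or for the G84E variant, or with the control shRNA vector pGIPZ (control). HOXB13 was mapped by ChIP-seq in all 4 states, HDAC3 ChIP-seq and ATAC-seq in knockdown and control cells, and HDAC1 in control cells. PC-3 cells, which grow without androgen, gave H3K27ac ChIP-seq after HOXB13 shRNA and with pGIPZ, and HOXB13 ChIP-seq with pGIPZ alone. The time of infection is not given for PC-3. Each list came from 1 library, so no difference below has a replicate check, and each interval covers counting error only. The H3K27ac libraries of LNCaP were not analysed here. H3K27ac changes therefore come from PC-3 and HDAC3 changes from LNCaP, and they cannot be tied to each other within 1 cell line.

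RefSeq promoters (GRCh38.p14) were searched for HOXB13 words over the 250 bases before each gene start, since the homeobox factor has known A-rich and CG-containing sites. The tables matched 16 promoters of 7 of the 9 genes. FABP5 and LPL had none there. The full words CCAATAAA and CTCGTAAA, on either strand, were in 0 of the 16 promoters, against 0.863% and 0.117% of all 35116 promoters of this length. The cores AATAAA and CGTAAA, which lie inside the full words, were in 3 and 2 of the 16, against 16.0% and 2.68% of all. The 2 with CGTAAA are PPARG starts that share nearly all their letters, and 1 of them is shown. Of the 3 with AATAAA, those with the core on the plus strand of the gene are shown. Capitals mark a core on either strand. They are the CPT1A promoter at chr11:68844278-68844527 (minus strand), with AATAAA at 236 and its reverse at 29 bases before the start, the PPARG promoter at chr3:12288810-12289059 (plus strand), with the reverse of CGTAAA at 92, and the PPARG promoter at chr3:12351167-12351416 (plus strand), with AATAAA at 222.
CPT1A: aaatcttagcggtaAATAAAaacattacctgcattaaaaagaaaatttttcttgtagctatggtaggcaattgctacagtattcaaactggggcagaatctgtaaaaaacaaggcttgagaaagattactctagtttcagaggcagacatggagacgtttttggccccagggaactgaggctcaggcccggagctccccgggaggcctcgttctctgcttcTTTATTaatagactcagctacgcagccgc
PPARG, chr3:12288810-12289059: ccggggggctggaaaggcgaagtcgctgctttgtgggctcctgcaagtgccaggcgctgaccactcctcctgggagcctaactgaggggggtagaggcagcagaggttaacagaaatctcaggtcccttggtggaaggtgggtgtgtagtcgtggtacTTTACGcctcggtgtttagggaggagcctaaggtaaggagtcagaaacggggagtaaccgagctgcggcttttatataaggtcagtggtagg
PPARG, chr3:12351167-12351416: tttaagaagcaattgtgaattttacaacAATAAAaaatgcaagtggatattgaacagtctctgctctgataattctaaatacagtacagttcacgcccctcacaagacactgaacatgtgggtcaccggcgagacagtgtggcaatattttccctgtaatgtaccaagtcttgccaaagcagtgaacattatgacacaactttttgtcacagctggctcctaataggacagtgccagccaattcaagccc
A core is a description of letters and not a bound site. The peaks are in hg19, so their distances to these starts were not measured.

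**Figure D1:**
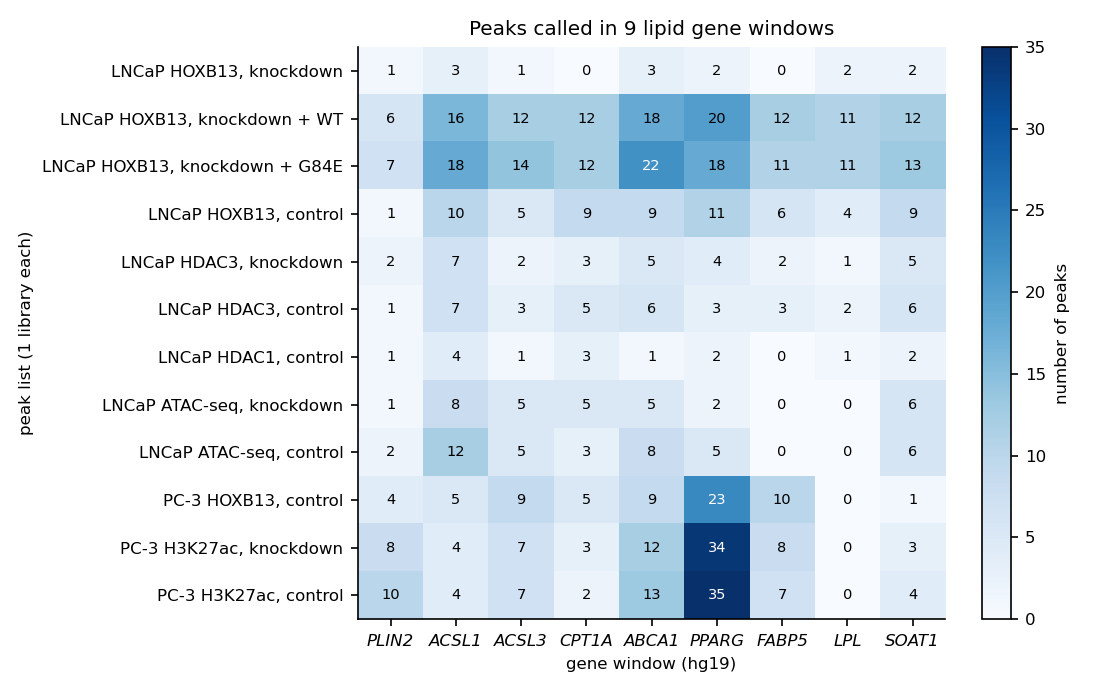
Number of peaks called in each gene window (columns) in each of the 12 lists (rows), 1 library a list. PPARG held the most peaks in both PC-3 H3K27ac lists (34 after knockdown and 35 in the control), and LPL had 0 peaks in both ATAC-seq lists and in all 3 PC-3 lists.

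Library totals ran from 13522600 to 47195300 tags, and normalized tag counts below are per 10000000 tags. The share of tags in peaks differed within most pairs: for HDAC3 it was 5.08% after knockdown and 7.63% in the control, for H3K27ac 46.2% after knockdown and 38.9% in the control, and for ATAC-seq 2.38% after knockdown and 2.46% in the control. HOXB13 had 2.13% of tags in peaks after knockdown, 17.1% with WT, 15.6% with G84E and 9.17% in the control. Density in the windows was set against that of the whole list, counted over the 2000 Mb the file headers give as genome. For LNCaP HOXB13 it was 40.8 against 45.7 peaks per Mb in the control and 8.92 against 11.4 after knockdown. With WT it was 75.8 against 95.4, and with G84E 80.3 against 95.9. For PC-3 HOXB13 it was higher in the windows, with 42.0 against 35.4. For PC-3 H3K27ac it was 50.3 against 24.8 regions per Mb after knockdown, and 52.2 against 25.2 in the control.

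After knockdown nearly all control HOXB13 peaks of the lipid gene windows were no longer called. Of the 64 control peaks 1 (1.56%, exact 95% CI 0.0396 to 8.40) was called again, against 1.48% of the whole control list. It lay in the ACSL1 window at chr4:185655231-185655521. The normalized tag count there was 5.51 after knockdown, 10.4 with WT, 9.28 with G84E and 10.2 in the control (log2 ratio of knockdown to control −0.89, 95% CI −1.68 to −0.11). As tag density the log2 ratio was −0.71. The other 13 peaks of the knockdown list lay away from control peaks, and all 14 were low, with 3.81 to 6.36 tags. CPT1A and FABP5 had 0 knockdown peaks, against 9 and 6 control peaks.

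Re-expressed HOXB13 was found again at most of these sites. WT was called at 44 of the 64 control peaks (68.8%, 95% CI 55.9 to 79.8), against 67.4% of the whole list, and G84E at 48 of 64 (75%, 62.6 to 85.0), against 63.2%. The order of WT and G84E depended on how many weaker peaks were admitted. With each list cut to its better-scoring 91430 peaks, the length of the control list, WT reached 60.9% and G84E 56.2%. In the better-scoring 50% of lists WT reached 85.7% and G84E 80%. Both forms were called at 40 control peaks (62.5%, against 54.2% of the whole list), WT alone at 4 (6.25%, against 13.2%), G84E alone at 8 (12.5%, against 8.99%) and neither at 12 (18.75%, against 23.6%). WT alone was thus the rarer of the single forms in the windows and the commoner in the whole list. The 12 without either form had 4.07 to 10.5 tags and a median of 5.82, against 7.57 over the control peaks of the windows. In the whole list, too, the peaks without either form had a lower median than all control peaks. The 16 strongest control peaks of the windows (12.2 to 24.4 tags) were called with WT and with G84E in all 16 cases. The matching share of the strongest peaks over the whole list was not computed, so this count cannot be set against the genome. G84E covered all 9 control peaks of ABCA1 and 6 of 9 at CPT1A, and WT covered 6 of 9 at ABCA1 and 8 of 9 at CPT1A. With these counts the exact intervals overlapped (ABCA1: 66.4 to 100% for G84E and 29.9 to 92.5% for WT).

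**Figure D2:**
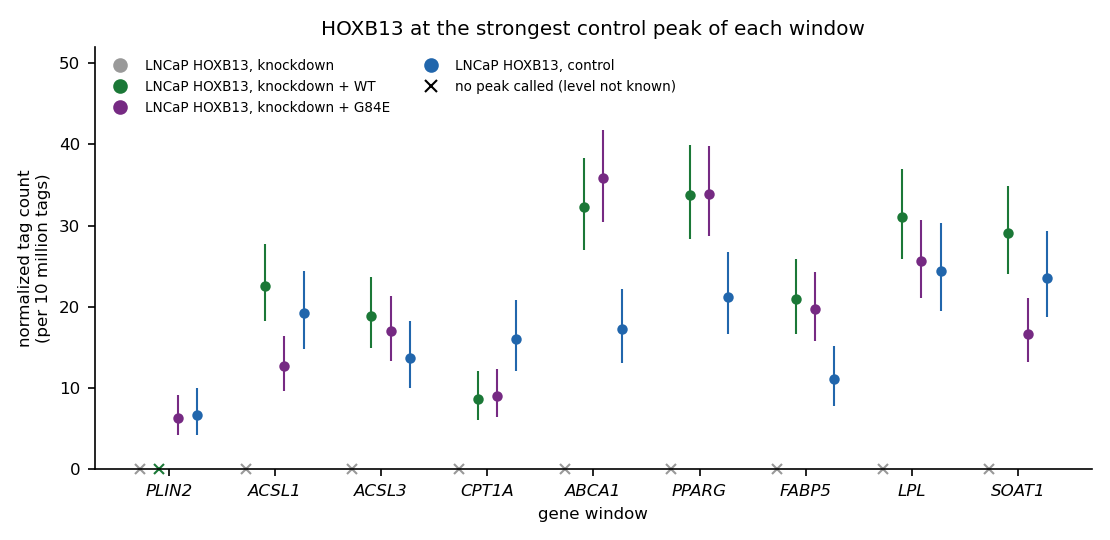
HOXB13 normalized tag count at the strongest control HOXB13 peak of each window in LNCaP knockdown, WT, G84E and control cells; bars are 95% Poisson intervals (counting error only) and crosses mark lists with no peak called there, drawn at 0 although the level is not known. No peak was called after knockdown at any of the 9 sites; the ABCA1 site had 32.3 tags with WT and 35.8 with G84E against 17.2 in the control, and the CPT1A site 8.69 with WT and 9.05 with G84E against 16.0 in the control.

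Many re-expression peaks were outside the control set. Of the 119 WT peaks in the windows 75 lay away from control peaks, with a median of 5.96 tags there and 12.2 at control sites. Of the 126 G84E peaks 78 did, with a median of 5.66 there and 9.16 at control sites. In the whole lists, 32.3% of WT peaks and 30.1% of G84E peaks lay at control sites.

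G84E and WT occupied largely overlapping sites of these genes, with somewhat lower tag counts for G84E, as across the genome. G84E was called at 72 of 119 WT peaks (60.5%, 95% CI 51.1 to 69.3), against 55.0% of the whole list. At those 72 peaks G84E was lower at 48 (60.0% of all shared peaks) and higher at 24, with a median log2 ratio of −0.23 against −0.13 over all 105033 shared peaks. Centred on that median, the windows' median was −0.10. The share of tags in peaks was 15.6% with G84E and 17.1% with WT, and its part in the lower counts was not tested. The interval lay below 0 at 15 peaks (13.3% of all shared peaks), above it at 1 (3.42%) and held 0 at 56. G84E was at least 2-fold lower at 2 peaks (2.86% of all shared peaks) and at least 2-fold higher at 0 (0.818%). Both falls were in the CPT1A window: 5.43 tags with G84E and 12.9 with WT at chr11:68614941-68615215 (log2 ratio −1.25, 95% CI −2.01 to −0.53), and 4.98 with G84E and 11.2 with WT at chr11:68640353-68640627 (−1.17, −1.97 to −0.40). The 1 peak with an interval above 0 was at PPARG, chr3:12452727-12453001, with 18.1 tags with G84E and 11.9 with WT (0.60, 0.07 to 1.15). By window, SOAT1 was lower with G84E at 8 of its 9 shared peaks and ACSL3 at 7 of 8, while PPARG was lower at 3 of 10 and higher at 7.

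Against the control, tag counts at shared sites moved little in the median. The median log2 ratio to the control was 0.24 for WT (44 peaks) and −0.09 for G84E (48 peaks), against 0.17 and 0.016 over the whole lists. WT was at least 2-fold higher at 3 of 44 peaks (10.3% of all shared peaks) and lower by that much at 0 (1.48%). G84E was at least 2-fold higher at 2 of 48 (6.44%) and lower at 1 (3.49%). The largest rise with either form was in the FABP5 window at chr8:82245963-82246253, with 24.1 tags with WT, 20.8 with G84E and 6.69 in the control. WT stood 1.85 above the control on the log2 scale (95% CI 1.18 to 2.57), and G84E 1.64 (0.97 to 2.36). The other 2 sites with WT at least 2-fold higher were in the ABCA1 window at chr9:107587230-107587520, with 12.7 tags with WT, 8.60 with G84E and 6.11 in the control, and in the CPT1A window at chr11:68598785-68599075, with 11.7 with WT, 7.02 with G84E and 5.82 in the control. The 1 site at least 2-fold lower with G84E was in the ABCA1 window at chr9:107572827-107573117, with 9.93 tags with WT, 7.69 with G84E and 15.4 in the control (log2 ratio to the control −0.63, 95% CI −1.26 to −0.02 for WT, with an interval of −1.67 to −0.36 for G84E).

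HDAC3 lay beside HOXB13 at a minority of these sites, in every window but PLIN2 and LPL. Of the 64 control HOXB13 peaks 14 (21.9%, 95% CI 12.5 to 34.0) had a control HDAC3 peak, against 13.4% of the whole list, which lies inside that interval. With peak centres within 100 bp the share was 12.5%. A control ATAC peak lay at 8 (12.5%, against 10.3%), HDAC1 at 2 (3.13%, against 1.93%), and both HDAC3 and ATAC at 6 (9.38%, against 5.77%). From the other side, 14 of the 36 control HDAC3 peaks had HOXB13 (38.9%, against 36.0%).

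After HOXB13 knockdown, HDAC3 tag counts were lower at nearly all the sites it kept in these windows, as they were across the genome. Of the 36 control HDAC3 peaks 16 (44.4%, 95% CI 27.9 to 61.9) were called again, against 47.6% of the whole list. With a control HOXB13 peak 7 of 14 were called again, and without one 9 of 22, against 50.6% and 46.0% in the whole list. The knockdown value was lower at 15 of the 16 shared peaks, against 80.3% of all shared peaks. Of the intervals 7 lay below 0 (33.9% of all shared peaks), 0 above it (1.8%) and 9 held it. The median log2 ratio was −0.52, against −0.44 over all 16177 shared peaks, and 3 peaks were at least 2-fold lower (15.2% of all shared peaks) and 0 at least 2-fold higher (0.414%). HDAC3 peaks were 365 bp wide in the knockdown list and 471 bp in the control list. As tag density the medians were −0.15 in the windows and −0.07 in the whole list, and centred on the whole list the windows' median was −0.08. The lower HDAC3 counts at these genes cannot be told apart from the lower share of tags in peaks of the knockdown library.

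The 3 sites at least 2-fold lower were in the PLIN2, PPARG and ACSL1 windows. PLIN2 had 8.36 HDAC3 tags after knockdown and 23.7 in the control at chr9:19102750-19103220 (log2 ratio −1.50, 95% CI −2.29 to −0.75, or −1.13 as density). PPARG had 13.7 after knockdown and 28.3 in the control at chr3:12525602-12526072 (−1.05, −1.68 to −0.43). ACSL1 had 26.6 after knockdown and 54.7 in the control at chr4:185726669-185727139 (−1.04, −1.49 to −0.60), the strongest HDAC3 site of the windows in the control. As density the PPARG and ACSL1 values were −0.68 and −0.67. At PLIN2 and PPARG the knockdown peak was shifted, to 19102560-19102924 and 12525970-12526334, and both pairs fall out when 50% of the shorter peak must overlap. The strongest HDAC3 peak called in the control alone was also at ACSL1, chr4:185668061-185668531, with 42.7 tags, and the next knockdown peak was 12388 bp away. This site was chosen after its value was seen. ATAC-seq at the same place had 8.24 tags after knockdown and 7.75 in the control.

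**Figure D3:**
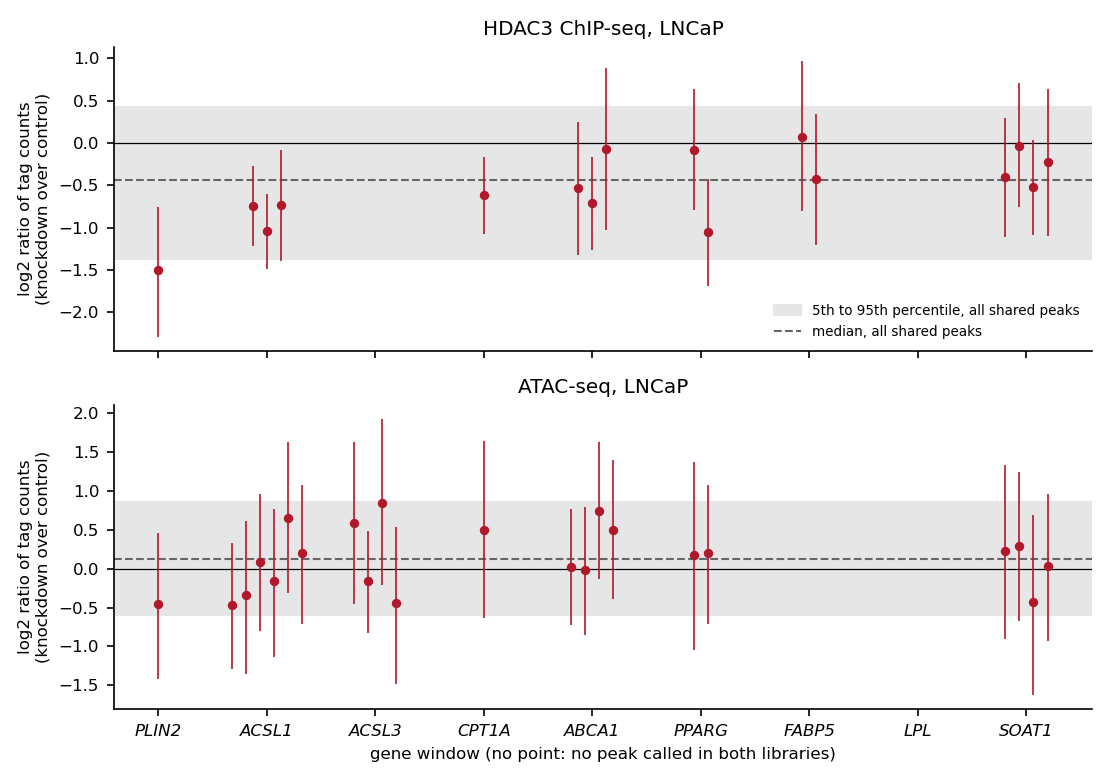
Log2 ratio of tag counts, HOXB13 knockdown over control, at each HDAC3 peak (top, 16 peaks) and ATAC-seq peak (bottom, 22 peaks) called in both LNCaP libraries, by gene window; bars are exact 95% intervals, the grey band the 5th to 95th percentile and the dashed line the median of all shared peaks. HDAC3 lies below 0 at 15 of 16 peaks, around the whole-list median of −0.44, and every ATAC-seq interval holds 0.

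No change in accessibility at these genes was detectable at this depth. Of the 41 control ATAC peaks 22 (53.7%, 95% CI 37.4 to 69.3) were called again, against 49.8% of the whole list. At those 22 the knockdown value was higher at 14 (61.6% of all shared peaks) and lower at 8. All 22 intervals held 0, where 3.34% of all shared peaks had one above it and 0.979% one below, and 0 peaks were at least 2-fold higher (2.65% of all shared peaks) or lower (0.471%). The median log2 ratio was 0.14, against 0.12 over the whole list. As tag density it was −0.06, so its sign depends on the width of the peaks, 111 bp after knockdown and 96 bp in the control. Counts were small, with 2.77 to 14.9 normalized tags over the 41 control peaks. Changes smaller than the distance from a ratio to the end of its interval were not detectable.

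In PC-3 cells, H3K27ac over the lipid gene windows was higher after HOXB13 knockdown at most loci, as it was across the genome, with PPARG holding both the largest block of signal and the largest falls. Of the 82 control regions 69 (84.1%, 95% CI 74.4 to 91.3) were called again, against 79.4% of the whole list. Regions linked by overlap formed 58 shared loci, of which 44 were higher and 14 lower after knockdown, against 70.1% higher over all shared loci. Intervals lay above 0 at 27 loci (36.5% of all shared loci), below it at 4 (7.83%), and held 0 at 27. A rise of at least 2-fold was seen at 10 loci (17.2%, against 8.44% of all shared loci) and a fall of that size at 3 (5.17%, against 2.5%). The median log2 ratio was 0.51 in the windows and 0.27 over all 37737 shared loci, and it was 0.27 and 0.20 as tag density. Centred on the whole list, 37 loci were above 0 and 21 below, with a median of 0.24. The interval cleared the whole-list median upward at 21 and downward at 9. The matching shares over all shared loci were not computed, so these counts cannot be set against the genome. The share of tags in peaks was 46.2% after knockdown and 38.9% in the control, and its part in these rises was not tested.

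**Figure D4:**
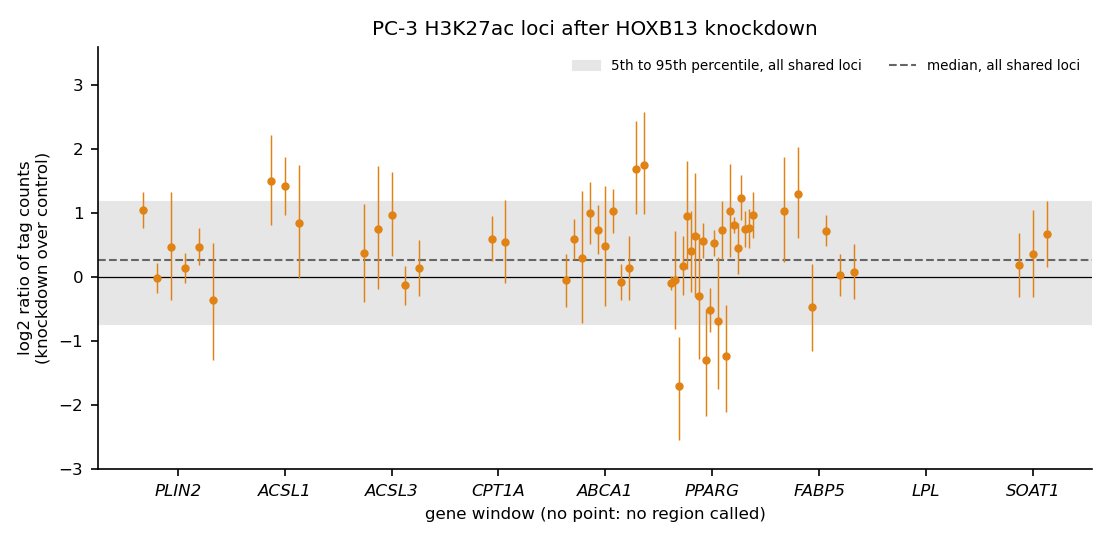
Log2 ratio of H3K27ac tag counts, HOXB13 knockdown over control, at each of the 58 shared loci in PC-3 cells, by gene window and, within a window, in genomic order; bars are exact 95% intervals, the grey band and dashed line the 5th to 95th percentile and the median of all shared loci. All 3 ACSL1 loci lie above the median of 0.27, and the 3 lowest loci are in the PPARG window.

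Summed over the called regions of a window, H3K27ac was higher after knockdown in all 8 windows that had any, and per kb in 7 of the 8. The whole knockdown list also held more of its tags in peaks, 46.2% against 38.9% in the control. The part of that difference in the sums was not tested, and no sums were made over other windows. PLIN2, PPARG and SOAT1 were 1.28-, 1.27- and 1.19-fold higher. ACSL1 changed most, with 188.5 tags over 6.68 kb after knockdown and 82.2 over 4.83 kb in the control, which is 28.2 tags per kb after knockdown and 17.0 in the control. CPT1A had 169.3 tags after knockdown (24.6 per kb) and 101.6 in the control (21.2 per kb). ABCA1 had 888.9 after knockdown (29.3 per kb) and 599.5 in the control (23.8 per kb), and FABP5 546.5 after knockdown (28.3 per kb) and 392.9 in the control (22.2 per kb). ACSL3 was nearly level, with 289.2 tags after knockdown and 280.8 in the control, and per kb it was 22.2 after knockdown and 22.9 in the control. These sums follow how much was called in each library as well as how high it stood.

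Most PC-3 HOXB13 peaks in these windows lay in H3K27ac regions. Of 66 peaks, 40 (60.6%, 95% CI 47.8 to 72.4) overlapped a control H3K27ac region, against 34.5% of the whole list, and 60.6% against 37.1% overlapped a knockdown region. Windows were also denser in H3K27ac regions than the genome, by the values above, and the part of that density in the share was not tested. An H3K27ac region of either list held 43 of the 66 (65.2%, against 39.9%), of which 21 were at PPARG. H3K27ac loci with a PC-3 HOXB13 peak had a median log2 ratio of 0.60 (31 loci) and those without of 0.38 (27 loci), against 0.31 and 0.20 over the whole list. PC-3 shared 19 of its 66 HOXB13 peaks with LNCaP control cells (28.8%, against 27.2%), and 35 of 66 with any of the LNCaP WT, G84E and control lists, against 47.9% of all PC-3 HOXB13 peaks. All 5 PC-3 peaks at CPT1A were among those 35, as were 6 of 9 at ACSL3, 11 of 23 at PPARG, 5 of 10 at FABP5 and 4 of 9 at ABCA1.

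Among the storage genes, PLIN2 had the fewest HOXB13 peaks in LNCaP control cells. Its 1 control peak, chr9:19160933-19161223, had 6.34 tags with G84E and 6.69 in the control, and was not called after knockdown or with WT. HDAC3, HDAC1 and ATAC-seq met instead at chr9:19102750-19103220, the site of the HDAC3 fall given above, where HDAC1 had 22.2 tags in control cells and ATAC-seq 6.28 after knockdown and 8.58 in the control. HOXB13 was called there with WT at 5.71 tags and with G84E at 5.21, and not after knockdown or in the control. In PC-3 the H3K27ac locus over it, chr9:19100631-19106266, had 221.1 tags after knockdown and 106.9 in the control (log2 ratio 1.05, 95% CI 0.77 to 1.33, or 0.67 as density). It held a PC-3 HOXB13 peak of 28.6 tags, which did not overlap the LNCaP peaks. The largest locus of each library showed no such rise: chr9:19113319-19120598 had 216.7 tags after knockdown and 219.2 in the control, and chr9:19124238-19130960 had 224.1 after knockdown and 202.5 in the control.

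SOAT1, which esterifies cholesterol for storage, had 9 control HOXB13 peaks, a pair of them among the strongest of the windows. At chr1:179282130-179282420 HOXB13 had 29.1 tags with WT, 16.7 with G84E and 23.6 in the control. HDAC3 there had 14.1 tags after knockdown and 14.4 in the control (log2 ratio −0.03, 95% CI −0.76 to 0.71), although HOXB13 was not called after knockdown. At chr1:179368590-179368880 HOXB13 had 28.3 tags with WT, 18.6 with G84E and 22.4 in the control, and PC-3 had its only HOXB13 peak of the window there, with 7.59 tags. HDAC3 beside it had 9.50 after knockdown and 11.1 in the control. At chr1:179257145-179257435 (12.7 tags with WT, 6.79 with G84E and 11.6 in the control) HDAC3 had 25.0 tags in the control and was not called after knockdown, while ATAC-seq had 5.49 tags after knockdown and 4.70 in the control. By an overlap of at least 1 bp, HDAC3 was thus called again at 2 of the 3 HOXB13 sites of SOAT1 that had it, 1 of them with the shifted peak. The window's strongest HDAC3 and HDAC1 peaks stood elsewhere, at chr1:179334826-179335296, without HOXB13 in the control. HDAC3 there had 19.4 tags after knockdown and 27.8 in the control (−0.52, −1.09 to 0.04), and HDAC1 had 38.0 in the control. PC-3 H3K27ac over it had 60.6 tags after knockdown and 38.1 in the control (0.67, 0.17 to 1.18).

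Of the activating enzymes, the ACSL1 window held the site shared by the most lists. CENPU and HELT are the genes next to ACSL1, and the site was not assigned to any of these genes. The control HOXB13 peak at chr4:185655231-185655521, the same that outlasted the knockdown, met a peak in all 12 lists, as 44 of the 91430 control peaks did (0.0481%). HDAC3 had 25.5 tags after knockdown and 42.7 in the control (log2 ratio −0.74, 95% CI −1.22 to −0.27), HDAC1 had 36.5 in the control, and ATAC-seq 8.24 after knockdown and 11.3 in the control. In PC-3 HOXB13 had 27.5 tags and H3K27ac 107.2 after knockdown against 40.1 in the control (1.42, 0.98 to 1.88). As density the rise was 1.44. The neighbouring H3K27ac locus, chr4:185649007-185651917, had 47.3 tags after knockdown and 16.7 in the control (1.50, 0.81 to 2.23), or 0.33 as density. The strongest control HOXB13 peak of ACSL1 lay elsewhere, at chr4:185714148-185714438, with 22.6 tags with WT, 12.7 with G84E and 19.2 in the control, and no HDAC3. The strongest HDAC3 site, given above, had no HOXB13 in the control. At chr4:185759560-185759850 HOXB13 had 12.2 tags with WT, 7.69 with G84E and 10.5 in the control, and HDAC3 13.7 after knockdown and 22.7 in the control (−0.73, −1.39 to −0.08).

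ACSL3, the acyl-CoA synthetase found on growing droplets, had 5 control HOXB13 peaks. Its strongest, chr2:223750005-223750295, had 18.9 tags with WT, 17.0 with G84E and 13.7 in the control, and an HDAC3 peak of 14.4 tags that was not called after knockdown. None of its 3 control HDAC3 peaks was called again, with 2 HDAC3 peaks elsewhere in the window after knockdown. HDAC1 and ATAC-seq peaked together away from the control HOXB13 peaks, near chr2:223725719-223726035, with 38.7 HDAC1 tags in the control and ATAC-seq at 13.3 after knockdown and 14.9 in the control. That place also had the window's only knockdown HOXB13 peak, with 6.36 tags. The PC-3 H3K27ac locus over it had 122.8 tags after knockdown and 133.7 in the control (log2 ratio −0.12, 95% CI −0.43 to 0.18). The strongest PC-3 HOXB13 peak of ACSL3, with 19.5 tags, lay in the locus chr2:223707117-223709460, where H3K27ac had 42.2 tags after knockdown and 21.4 in the control (0.98, 0.33 to 1.65, or 0.28 as density).

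CPT1A, the gate to mitochondrial oxidation, had 9 control HOXB13 peaks, and HDAC3 at 3 of them. The site in most lists, chr11:68606694-68606984, was called in 11 of 12, all but the HOXB13 knockdown list. HOXB13 had 8.44 tags with WT, 10.2 with G84E and 12.8 in the control. HDAC3 had 28.5 tags after knockdown and 43.6 in the control (log2 ratio −0.61, 95% CI −1.07 to −0.16), HDAC1 had 22.9 in the control, and ATAC-seq 5.89 after knockdown and 4.15 in the control. In PC-3 HOXB13 had 24.2 tags there and H3K27ac 116.8 after knockdown against 76.9 in the control (0.60, 0.25 to 0.96). The other pair of HOXB13 sites with HDAC3 in the control, at 68599993-68600283 and 68624998-68625288, had 22.7 and 17.6 HDAC3 tags in the control and no HDAC3 peak after knockdown. ATAC-seq was called at both of these HDAC3 peaks after knockdown, with 5.10 and 3.53 tags, and at neither in the control. The strongest control HOXB13 peak, chr11:68515539-68515829, was lower with both forms, at 8.69 tags with WT, 9.05 with G84E and 16.0 in the control (WT to control −0.88, −1.54 to −0.24).

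Among the transport genes, the FABP5 and LPL windows had HOXB13 peaks but no ATAC-seq peak in either LNCaP library. The windows span 110 and 120 kb, and the whole control list held 18.5 ATAC-seq peaks per Mb. Over the 9 windows that list held 26.1 per Mb, and the 120 kb PLIN2 window had 2 control peaks. The part of window length in this absence was not tested. Of all control HOXB13 peaks 10.3% had a control ATAC-seq peak. The control HOXB13 peaks of PLIN2 and ACSL3 had none either, although those windows had ATAC-seq peaks elsewhere. At FABP5 the site that rose with both forms, chr8:82245963-82246253, was also the strongest PC-3 HOXB13 peak of the window, with 108.5 tags against 6.69 in LNCaP control cells. These levels come from different cell lines and 1 library each. The strongest control site, chr8:82149868-82150158, had 20.9 tags with WT, 19.7 with G84E and 11.1 in the control. HDAC3 met HOXB13 at chr8:82234705-82234995, with 11.0 HDAC3 tags after knockdown and 14.8 in the control. The largest FABP5 H3K27ac locus, chr8:82192503-82196493, had 260.3 tags after knockdown and 157.7 in the control (log2 ratio 0.72, 95% CI 0.48 to 0.97).

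LPL held the strongest control HOXB13 peak of all 9 windows, chr8:19868086-19868376, with 31.0 tags with WT, 25.6 with G84E and 24.4 in the control. No HDAC3, HDAC1, ATAC-seq, H3K27ac or PC-3 HOXB13 peak lay there. LPL had 4 control HOXB13 peaks and 2 control HDAC3 peaks, none of them at the same place, and neither HDAC3 peak was called again. PC-3 had 0 HOXB13 peaks and 0 H3K27ac regions in the 120 kb of the window. A peak not called does not show that signal was absent.

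ABCA1 had 9 control HOXB13 peaks, and its strongest was raised with both forms. At chr9:107529826-107530116 HOXB13 had 32.3 tags with WT, 35.8 with G84E and 17.2 in the control (log2 ratio to control 0.91, 95% CI 0.46 to 1.38 for WT, and 1.06, 0.62 to 1.52 for G84E). PC-3 had 29.6 HOXB13 tags there. The second site, chr9:107572827-107573117, went the other way, as given above. ATAC-seq there had 10.2 tags after knockdown and 6.09 in the control (0.75, −0.13 to 1.63). An HDAC3 peak near it that did not overlap the HOXB13 peak, chr9:107573197-107573667, had 19.0 tags after knockdown and 31.1 in the control (−0.71, −1.27 to −0.16). Both lay in a PC-3 H3K27ac locus, chr9:107571337-107575498, with 108.0 tags after knockdown and 64.8 in the control (0.74, 0.36 to 1.12). The only control HOXB13 peak of ABCA1 that overlapped HDAC3 was chr9:107738520-107738810. HOXB13 there had 13.4 tags with WT, 8.37 with G84E and 13.1 in the control. HDAC3 had 16.7 tags in the control and was not called after knockdown. The largest H3K27ac rises of all 9 windows were also at ABCA1: 42.9 tags after knockdown and 12.7 in the control at chr9:107730219-107731251 (1.76, 0.99 to 2.59), and 49.5 after knockdown and 15.4 in the control at chr9:107709769-107711968 (1.69, 0.99 to 2.44). As density they were 1.76 and 0.55. Both control counts were low, with a threshold of 10.02 in that list. The window's strongest ATAC-seq and HDAC1 peaks lay away from the control HOXB13 peaks, near chr9:107509891-107509987, with 11.0 ATAC-seq tags after knockdown and 10.8 in the control and 30.8 HDAC1 tags in the control. PC-3 H3K27ac over them had 153.8 tags after knockdown and 101.6 in the control (0.60, 0.29 to 0.91).

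PPARG, the lipid-sensing nuclear receptor, had the most HOXB13 peaks and H3K27ac regions of the windows in PC-3, and different sites led in each cell line. Its window and that of ABCA1 are the longest, at 250 kb. Per 100 kb, PC-3 HOXB13 peaks were nearly as many at FABP5 (9.09) as at PPARG (9.20). Control H3K27ac regions were still densest at PPARG, with 14.0 per 100 kb against 8.33 at PLIN2, the next. The strongest LNCaP control site, chr3:12424810-12425100, had 33.8 tags with WT, 33.9 with G84E and 21.2 in the control, and 74.8 in PC-3. The strongest PC-3 site, chr3:12486539-12486929, had 173.9 tags, the most of any HOXB13 peak in the windows. In LNCaP it was called with G84E alone, at 4.53 tags, close to the threshold of 4.30 of that list. Of the 23 PC-3 HOXB13 peaks 21 lay in an H3K27ac region of either list. The locus that held the strongest one, chr3:12474596-12489594, had 948.0 tags after knockdown and 538.0 in the control (log2 ratio 0.82, 95% CI 0.69 to 0.95, or 0.52 as density). The broadest locus, chr3:12328425-12355080, had 957.6 after knockdown and 1015.2 in the control (−0.08, −0.19 to 0.02).

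The H3K27ac response of PPARG differed along the window. The 5 loci downstream in the coordinates, between 12495019 and 12527363, all had intervals above 0, with log2 ratios of 0.45 to 1.24. They were grouped after their values were seen. The 3 largest falls of all windows lay between them and the broad locus: 13.3 tags after knockdown and 43.4 in the control at chr3:12363757-12367295 (−1.71, −2.55 to −0.94), 13.3 after knockdown and 32.7 in the control at chr3:12429061-12431885 (−1.30, −2.17 to −0.49), and 13.3 after knockdown and 31.4 in the control at chr3:12467643-12470519 (−1.24, −2.11 to −0.43). All 3 were narrower in the knockdown list, and as density their log2 ratios were 0.12, −0.23 and −0.21. Their knockdown counts of 13.3 were close to the threshold of 10.35 of that list. In LNCaP, the HDAC3 site at chr3:12525602-12526072 met HOXB13 (6.46 tags with WT and 5.82 in the control, not called after knockdown or with G84E). It lay in the last of those loci, chr3:12523942-12527363, where PC-3 H3K27ac had 135.3 tags after knockdown and 68.8 in the control (0.98, 0.62 to 1.34).

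**Figure D5:**
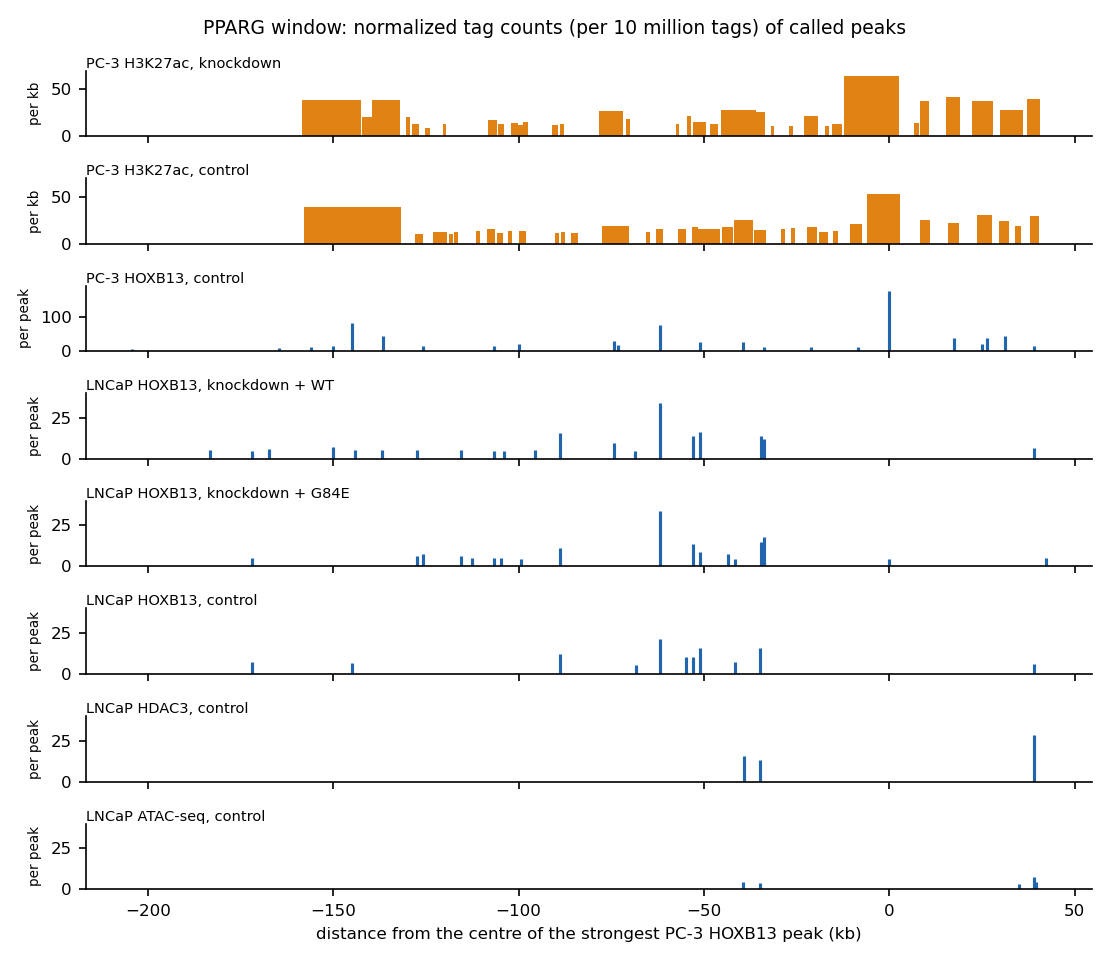
Called peaks in the PPARG window by distance (kb) from the centre of the strongest PC-3 HOXB13 peak, in 8 lists: H3K27ac regions as bars of normalized tags per kb, other peaks as lines of normalized tags per peak, with a scale of its own for each list. The strongest PC-3 HOXB13 peak (173.9 tags) stands within the H3K27ac block that was higher after knockdown (948.0 against 538.0 tags), while the strongest LNCaP HOXB13 peaks stand to its left.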

How the data were processed

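HOXB13, HDAC1, HDAC3 and H3K27ac ChIP-seq and ATAC-seq peak lists of LNCaP and PC-3 cells were used, 1 library a group. The submitters' processing notes name Bowtie2, HOMER 4.2 and hg19. HOMER's findPeaks was run by the authors on each library, per the file headers, without an input library, at a false discovery rate of 0.001. The 10 factor lists hold peaks of 1 width per list, at least 4-fold over the surrounding 10000 bp at a local Poisson p of 0.0001, and the 2 H3K27ac lists hold stitched 1000 bp windows. The deposited signal is the normalized tag count per 10000000 tags, from which whole tags were recovered (100% of values under 10 within 0.1 tags). The deposited score ranked peaks in 1 alternative, and the deposited fold over local background was not used for any result.

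Peaks overlapping by at least 1 bp were shared, and the partner with most tags was taken. H3K27ac regions linked by overlap were summed into loci. Shares and tag ratios have exact (Clopper-Pearson) 95% intervals, single values Poisson ones, and all cover counting error only. Ratios carry the peak width of each list unless given as density. Sites with the largest changes were picked by value, and no interval allows for this. With 1 library a group there is no test between conditions. Unless said otherwise, the sites named are some of these: the strongest peak of each list in each window, control HOXB13 peaks with HDAC3 or ATAC, peaks left after knockdown, the 5 largest changes each way, and H3K27ac loci or peaks at or beside them. The members and lists were chosen with earlier results of these data known. The overlap code was tested on simulated data. A check of the cell line labels is not reported here. Other lipid genes were not analysed here, since no hg19 annotation was used. Python 3.11.15, numpy 2.4.6, pandas 2.3.3, scipy 1.17.1 and matplotlib 3.10.9 were used.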

Additional observations from a re-analysis of the deposited data

How the results depend on the processing

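In the 9 windows 14 shares and medians were recomputed in 66 ways: close centres, stricter overlap, better-scoring lists, equal numbers of peaks, peak centres in the windows, tag density and centring. Of these, 53 stayed within the interval of the reported value, 13 moved beyond it and 0 called values changed sign. The ATAC-seq median changed sign as density, to −0.06 against 0.14. With peak centres within 100 bp the control HOXB13 peaks called again after knockdown were 0%, those with HDAC3 12.5% and the HDAC3 peaks called again 22.2%, and within 500 bp the H3K27ac regions called again were 48.8%. With 50% overlap HDAC3 was 27.8%. In the better-scoring 50% of lists WT was at 85.7% of control HOXB13 peaks, ATAC-seq was kept at 78.9% and H3K27ac at 51.4%. With equal numbers of peaks G84E was at 56.25% of control HOXB13 peaks and ATAC-seq lay at 23.3%. Centred on the whole list, the median log2 ratio was −0.079 for HDAC3 and 0.24 for H3K27ac, and as density 0.27 for H3K27ac. No paired analysis was possible because each group held 1 library, and leaving out a replicate was not possible for the same reason. Depth limits the ATAC-seq ratios, as the 41 control peaks of the windows had 2.77 to 14.9 normalized tags each.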
